A study of Mus musculus with 11 samples.

Results

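The genes described here carry Wnt and Notch signals or are known as brakes on fat cell formation, and they were followed in mouse 3T3-L1 cells after 24 h with a thiazolidinedione. They were chosen by symbol: probe sets annotated to a single gene of the Wnt, Frizzled (Fzd), secreted frizzled-related protein (Sfrp), Dishevelled (Dvl), Notch, Delta-like (Dll), Jagged (Jag), Hes or Tcf7 families, and those of Dlk1, Ctnnb1, Lef1, Axin1, Gata2, Gata3 and Pdgfra. This gave 65 probe sets of 48 genes, of 12422 probe sets on the array without controls and 8251 genes named by a single-gene probe set. 3T3-L1 cells are mouse embryo fibroblasts able to become adipocytes in culture, and whether they had been differentiated is not stated in the labels. RNA of cells given 20 µM pioglitazone (2 arrays), 1 µM rosiglitazone (3 arrays), 20 µM troglitazone (3 arrays) or the vehicle, 0.1% DMSO (3 arrays), was hybridised to 11 arrays of a single colour, 1 per sample. The titles place replicates 1 and 2 of all 4 groups in set 1 (8 arrays) and replicate 4 of rosiglitazone, troglitazone and vehicle in set 2 (3 arrays).

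Wnt proteins bind Frizzled receptors, Dishevelled passes the signal on, the Axin complex that marks β-catenin (Ctnnb1) for destruction is held back, and β-catenin then works with the TCF and LEF factors on DNA. Notch receptors are cut after they meet a Delta-like or Jagged ligand on a neighbouring cell, and the freed fragment switches on repressors of the Hes family. In preadipocytes active β-catenin signalling, Dlk1 (also called Pref-1) and the GATA factors hold back the adipocyte programme, which PPARγ, the receptor of the thiazolidinediones, drives forward.

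Signals are the deposited intensities in arbitrary units. A signal above 73.7, the 25th percentile of all values, was taken as above background, and this limit is called the floor. No detection call was used, so a signal above the floor does not by itself show that a gene is expressed. Of the 65 probe sets, 23 lay above the floor on all 11 arrays (35.4%, against 45.8% of all 12422), 41 on some of them and 1 on none. The 62 that passed it on at least 2 arrays were tested. The 3 that were not tested were Dll1 161634_r_at, above the floor on 0 arrays, and Fzd4 95772_r_at and Wnt10b 92750_s_at, each above it on 1 array. Most Wnt ligands lay near background: 1 of their 16 probe sets, that of Wnt1, was above the floor on every array. The same was true of 5 of 11 Frizzled probe sets, 1 of 3 Sfrp probe sets, 8 of 12 of the cytoplasmic and nuclear Wnt components, 0 of 3 of the Notch ligands, 3 of 7 of the Notch receptors, 3 of 6 of the Hes factors and 2 of 7 of the preadipocyte genes (Dlk1, Pdgfra, Gata2, Gata3). Gsk3b, Tcf7, Jag1 and Sfrp5 were not analysed here.

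**Figure D1:**
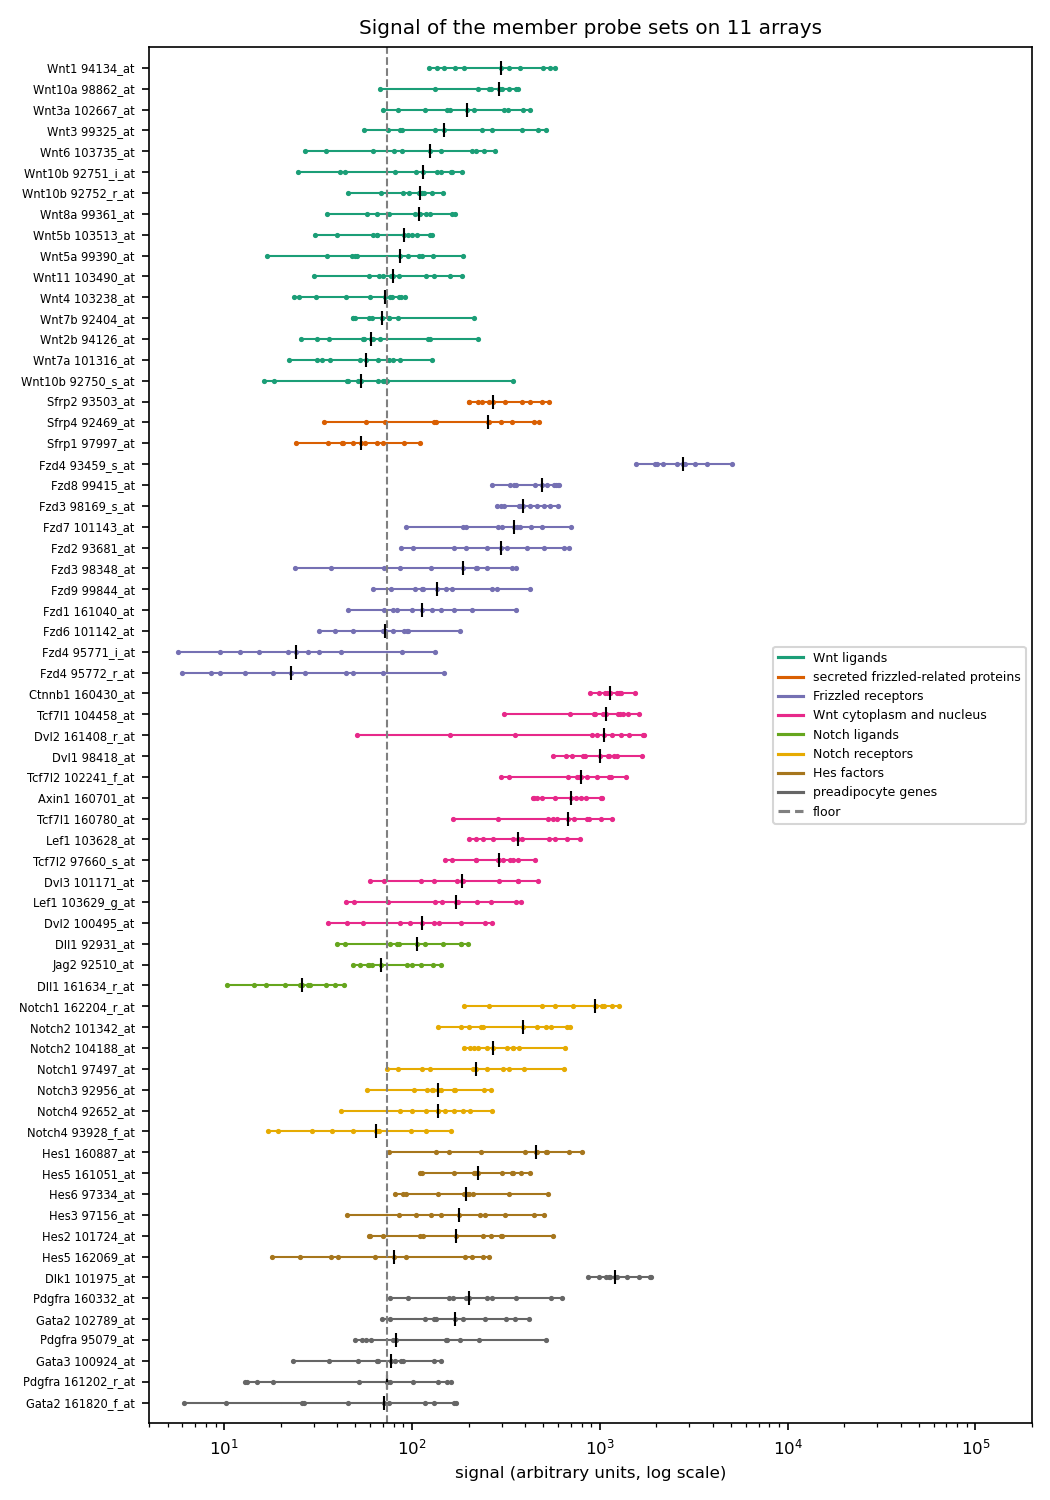
Signal (arbitrary units, log axis) of each of the 65 probe sets on the 11 arrays, coloured by family, with a black tick at the median and a dashed line at the floor of 73.7. The Wnt ligands straddle the floor, while 8 of the 12 probe sets of cytoplasmic and nuclear Wnt components lie above it throughout.

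Adipocyte marker transcripts were measured on every array: all 15 tested of a list of 20 (Adipoq, Cidec and others) lay above the floor on all 11, with summed signals of 212812 to 226207 with pioglitazone, 188150 to 242102 with rosiglitazone, 166962 to 196643 with troglitazone and 226508 to 273313 with vehicle. These 15 did not move together. Over the 3 drugs 2 were called higher than vehicle, Cidec (2.33-fold) and Pck1 (2.22-fold), by limma at an adjusted p under 0.05. In the same test 3 were called lower, Pparg (3.36-fold), Fasn (2.47-fold) and Retn (2.19-fold), where 2.14% of all probe sets tested were called. Cidec, Pparg and Fasn were also called with each drug alone, and Retn with rosiglitazone and troglitazone only. Pck1 was called with pioglitazone and rosiglitazone only. Its troglitazone signals (1695.8, 1913.7 and 1356) overlapped with those of vehicle (1717.7, 1016.2 and 1988.5). Of 14 tested fibroblast and preadipocyte markers, among them Dlk1 and Pdgfra, 9 were above the floor on all arrays. Their sum was lower on every drug array, at 8373.8 to 9519.2 with pioglitazone, 10048.3 to 11320.2 with rosiglitazone and 7418.2 to 9843.3 with troglitazone, than on the vehicle arrays, at 14874.1 to 15739.4. Of the tested markers of other cells, 2 of 7 of macrophages, 2 of 5 of osteoblasts and chondrocytes, 5 of 10 of skeletal muscle and 1 of 8 of endothelium were above the floor on all arrays. Rosiglitazone replicate 2 had the lowest median correlation with the other arrays (0.845), and pioglitazone replicate 2 the highest 3' to 5' signal ratio of the β-actin control (4.856). On the set 2 arrays 22 to 25 of the 65 probe sets were at the floor, against 8 to 19 on the set 1 arrays. The part of the marker differences in the results below was not tested. The labels do not say whether replicates came from separate cultures, so p-values measure only the spread between these samples, and their small number limits the precision. In bulk RNA, fewer cells of a type and less RNA per cell cannot be told apart.

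The first comparison asks whether the mean of the 3 drugs differed from vehicle in these genes. Frizzled 4, a receptor for Wnt ligands and for norrin, was the only member that passed the test, and it was lower with the drugs. Dlk1, the preadipocyte inhibitor, and Frizzled 2, another Wnt receptor, were also below every vehicle array on every drug array but did not pass. Because the results turn on Fzd4 and Dlk1, their RefSeq promoter windows (GRCm38.p6, 250 bases upstream of the start, plus strand, 5′ to 3′) are printed here. Capitals mark GGGCGG, the box bound by Sp1, and CCAAT on either strand. Both motifs were chosen after the sequences were seen.
Fzd4 chr7:89404116-89404365: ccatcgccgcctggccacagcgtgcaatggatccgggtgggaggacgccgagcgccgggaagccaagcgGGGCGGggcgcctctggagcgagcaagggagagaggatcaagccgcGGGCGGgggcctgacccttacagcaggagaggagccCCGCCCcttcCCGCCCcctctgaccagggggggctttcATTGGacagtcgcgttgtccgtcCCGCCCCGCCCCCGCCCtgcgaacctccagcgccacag
Dlk1 chr12:109452573-109452822: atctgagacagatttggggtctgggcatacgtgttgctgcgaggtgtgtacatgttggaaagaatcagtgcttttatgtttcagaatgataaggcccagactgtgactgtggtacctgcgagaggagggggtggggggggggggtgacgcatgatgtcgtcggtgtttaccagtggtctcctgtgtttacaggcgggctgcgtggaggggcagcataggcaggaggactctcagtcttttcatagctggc
The Fzd4 window is 72.8% G and C and holds GGGCGG 7 times, counting overlapping matches on both strands, and CCAAT 1 time. The Dlk1 window is 54.8% G and C and holds 0 of either. CTTTG, the core letters of the TCF and LEF motif, and AGGTCA, the core letters of the nuclear receptor motif, were found in neither window. Of 32536 promoter windows of this length, 48.7% hold CTTTG, 14.0% AGGTCA, 33.0% GGGCGG and 33.8% CCAAT on either strand. Among 45 windows matched to 34 of the 48 genes the shares were 51.1%, 4.4%, 68.9% and 20.0% in the same order.

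Fzd4 (93459_s_at; in the maker's naming the suffix s marks probes shared by more than 1 transcript) had signals of 2180.3 and 1969.1 with pioglitazone, 1555.0, 2788.0 and 2846.2 with rosiglitazone, 2578.5, 2009.6 and 2777.4 with troglitazone and 3704.7, 3200.5 and 5053.3 with vehicle; throughout, values run in the order of replicates 1, 2 and 4. The highest drug array lay below the lowest vehicle array, in both sets. The group means were 2075 ± 149 with pioglitazone (SD, n = 2), 2396 ± 729 with rosiglitazone, 2455 ± 398 with troglitazone and 3986 ± 958 with vehicle (n = 3 each). Over the 3 drugs Fzd4 fell 1.67-fold, a log2 change of -0.74 ± 0.17 (SE; 95% interval -1.09 to -0.39; limma adjusted p = 0.0272). It was the 1 member called of 62, or 1.61%, where 2.14% of all 11739 probe sets tested were called. The call was not stable: the adjusted p was above 0.05 in 11 of 24 alternative settings and reached 0.312 with set 1 alone. The direction held in all 24. With every drug array below every vehicle array, leaving out arrays could hardly have turned it, so this is no added support. Leaving out vehicle replicate 1, 2 or 4 in turn gave adjusted p-values of 0.182, 0.0812 and 0.190, and leaving out pioglitazone replicate 2, rosiglitazone replicate 4 or troglitazone replicate 4 gave 0.0645, 0.0714 and 0.0884. Within set 1 the log2 difference was -0.69.

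Dlk1 (101975_at) encodes a membrane protein whose shed outer part keeps preadipocytes from differentiating. Its signals were 990.1 and 1401.6 with pioglitazone, 1119.4, 1233.1 and 1205.7 with rosiglitazone, 868.7, 1138.2 and 1072.4 with troglitazone and 1877.4, 1623.3 and 1840.0 with vehicle. All 8 drug arrays lay below all 3 vehicle arrays. The means were 1196 ± 291 with pioglitazone (SD, n = 2), 1186 ± 59.3 with rosiglitazone, 1026 ± 141 with troglitazone and 1780 ± 137 with vehicle (n = 3 each). The log2 difference over the 3 drugs was -0.65 ± 0.17 (95% interval -1.01 to -0.29), or 1.57-fold lower, with an adjusted p of 0.0654 that ran from 0.0265 to 0.352 over the alternatives. Dlk1 thus stood on either side of the threshold depending on the setting, and was called without pioglitazone replicate 2 (adjusted p = 0.0293).

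Fzd2 (93681_at) is a Wnt receptor of the Frizzled family. It had signals of 195.0 and 409.9 with pioglitazone, 249.9, 101.8 and 319.2 with rosiglitazone, 87.4, 167.4 and 299.2 with troglitazone and 643.8, 502.8 and 682.0 with vehicle. Again every drug array was below every vehicle array, but the drug arrays spread widely, between 87.4 and 409.9. The log2 difference over the 3 drugs was -1.43 ± 0.45 (95% interval -2.39 to -0.46; adjusted p = 0.165). Dlk1, Fzd2 and Fzd4 were the 3 of 62 members with this separation, where 1.94% of all probe sets tested had it; 0 members had every drug array above every vehicle array, where 1.29% of all did.

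When each drug array was set only against the vehicle arrays of its own set, a count chosen after the values were seen, Notch2 104188_at and Sfrp2 joined these, making 5 of 62 (8.06%) lower and 0 higher, against 3.37% lower and 2.79% higher of all. Sfrp2 (93503_at), a secreted protein that binds Wnts, had signals of 423.0 and 225.5 with pioglitazone, 234.6, 385.1 and 201.8 with rosiglitazone, 314.5, 268.6 and 202.2 with troglitazone and 491.7, 534.8 and 257.1 with vehicle. Its lowest vehicle value was that of set 2, inside the range of the drug arrays. The log2 difference was -0.64 ± 0.37 (adjusted p = 0.619).

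**Figure D2:**
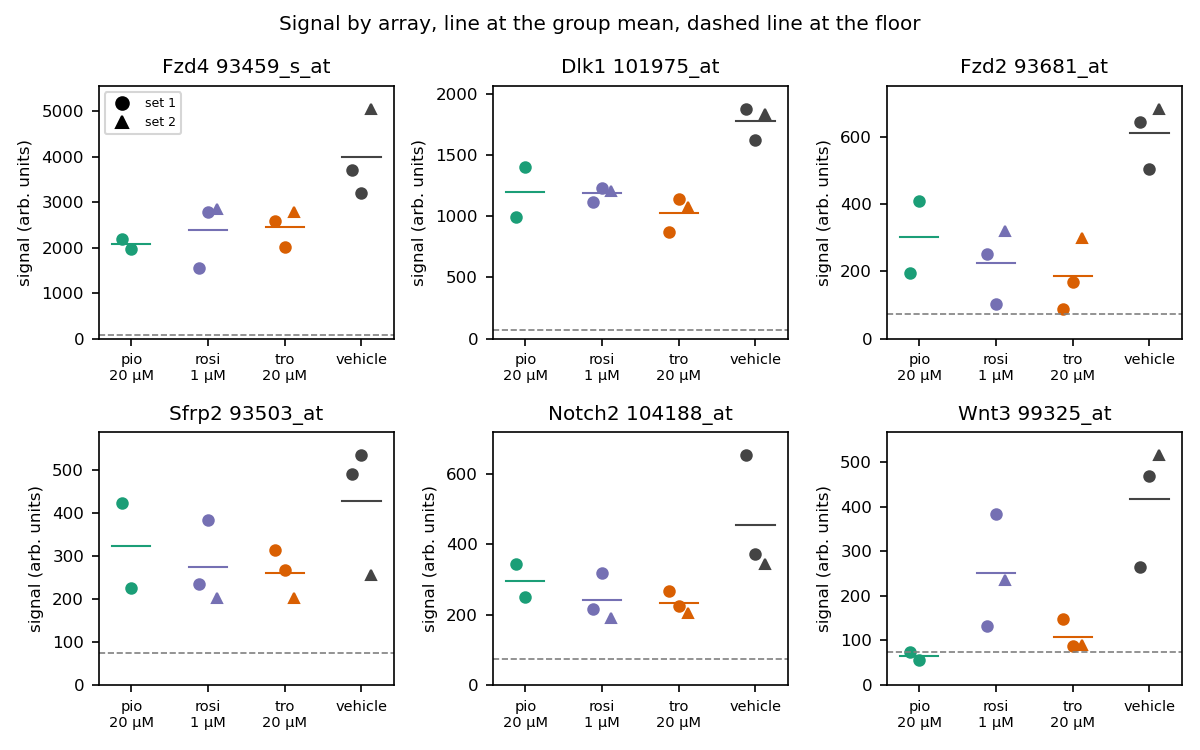
Signal (arbitrary units, linear axis from 0) on each array for Fzd4, Dlk1, Fzd2, Notch2 104188_at, Sfrp2 and Wnt3, by group, with circles for set 1, triangles for set 2, a line at the group mean and a dashed line at the floor. For Fzd4, Dlk1 and Fzd2 all 8 drug arrays lie below the 3 vehicle arrays.

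Over the 3 drugs, 7 members (11.3%) had an unadjusted p under 0.05, 1 higher and 6 lower, against 10.5% of all probe sets tested. The median log2 difference of the members was -0.06, against -0.03 over all. Family medians were -0.11 for 15 Wnt ligand probe sets, -0.64 for 3 Sfrp, -0.12 for 10 Frizzled, 0.06 for 12 cytoplasmic and nuclear components, 0.32 for 2 Notch ligands, -0.18 for 7 Notch receptors, 0.22 for 6 Hes factors and -0.30 for 7 probe sets of the preadipocyte genes. The 95% interval of a member reached typically 0.80 to either side on the log2 scale (median half-width). That width is not adjusted for the number of probe sets tested, so a call needed a larger difference still or a smaller spread.

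Each drug was then set against vehicle alone, and these comparisons share the 3 vehicle arrays. Where the arrays of a single drug are said to lie apart from vehicle, the share of all probe sets that do so was not computed. With so few arrays per group such separation arises easily and is not read as a result. By limma, 0 of the 62 members passed with pioglitazone, 0 with rosiglitazone and 0 with troglitazone, where 0.903%, 1.35% and 1.33% of all probe sets did. At an unadjusted p under 0.05 there were 7, 6 and 6 members (11.3%, 9.68% and 9.68%), against 9.85%, 10.5% and 8.32% of all. Median log2 differences of the members were -0.21 with pioglitazone, -0.00 with rosiglitazone and -0.02 with troglitazone, against -0.08, 0.00 and -0.03 over all. Fzd4 differed by -0.77 ± 0.23 with pioglitazone (adjusted p = 0.172), -0.76 ± 0.20 with rosiglitazone (adjusted p = 0.0867) and -0.69 ± 0.20 with troglitazone (adjusted p = 0.155). Without rosiglitazone replicate 2, the array that stood apart, the rosiglitazone value was -0.99 (adjusted p = 0.0234). Dlk1 differed by -0.57 ± 0.23 with pioglitazone (adjusted p = 0.401), -0.58 ± 0.20 with rosiglitazone (adjusted p = 0.254) and -0.80 ± 0.20 with troglitazone (adjusted p = 0.0738). The pioglitazone value of Dlk1 was -0.32 without pioglitazone replicate 1 (adjusted p = 0.866) and -0.82 without pioglitazone replicate 2 (adjusted p = 0.180). The troglitazone value of Dlk1 passed without pioglitazone replicate 1 (adjusted p = 0.0412) or 2 (0.0457), arrays that enter it only through the shared spread. For Fzd2 the values were -0.81, -1.59 and -1.89 in the same order of drugs, with adjusted p-values of 0.753, 0.245 and 0.15.

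**Figure D3:**
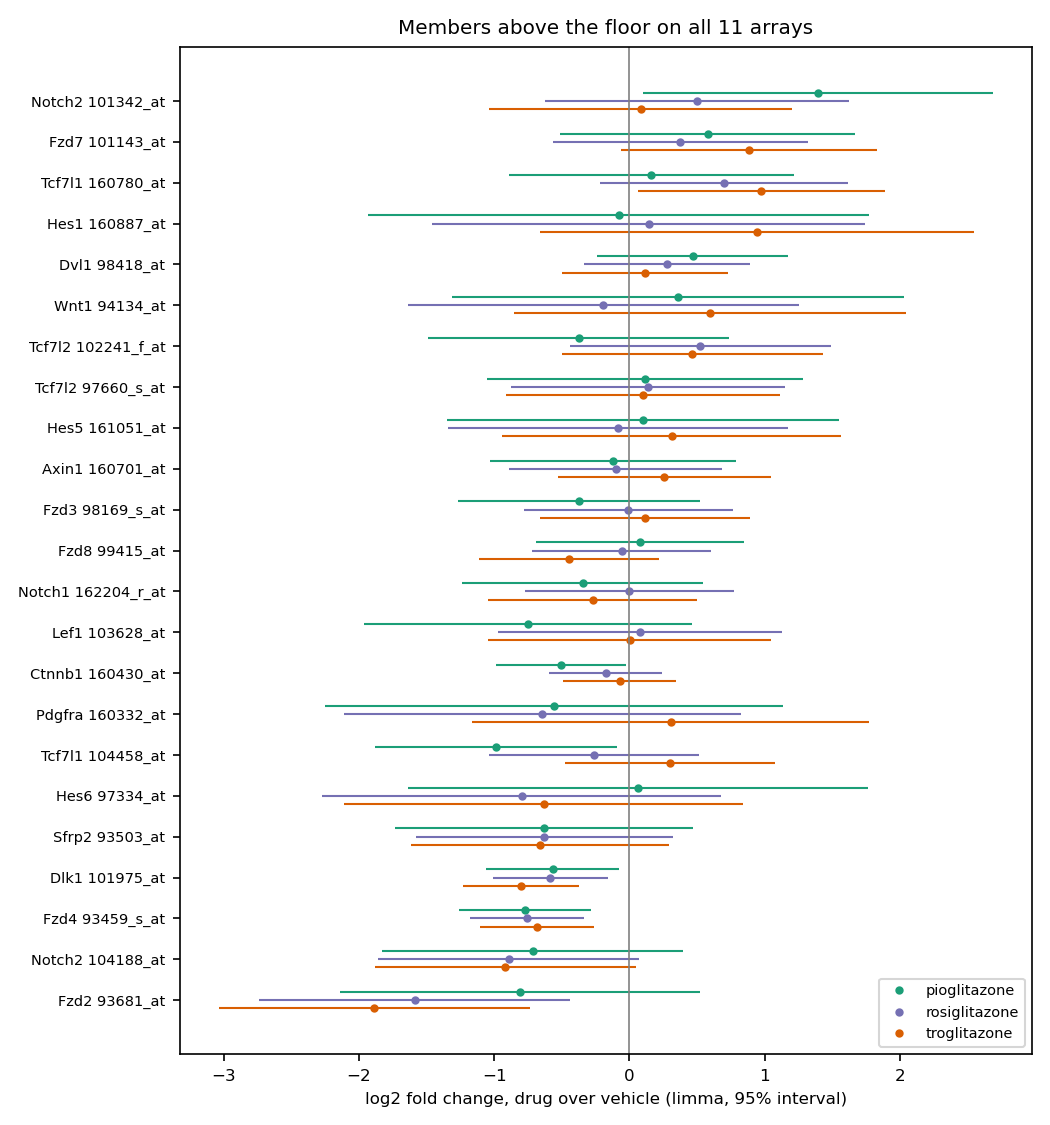
Log2 fold change over vehicle with its 95% interval (limma) for pioglitazone at 20 µM, rosiglitazone at 1 µM and troglitazone at 20 µM, for the 23 probe sets above the floor on all 11 arrays. The Fzd4 and Dlk1 intervals lie below 0 for each drug, yet their adjusted p-values run from 0.0738 to 0.401.

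Among the ligands, Wnt3 (99325_at), an activator of β-catenin signalling, had the smallest p with pioglitazone. Its signals were 74.2 and 55.5 with pioglitazone, 132.0, 383.1 and 235.5 with rosiglitazone, 148.0, 86.7 and 88.7 with troglitazone and 265.6, 467.7 and 514.6 with vehicle. The pioglitazone and troglitazone arrays lay below every vehicle array, while rosiglitazone replicate 2 lay within the vehicle range. The log2 differences were -2.41 ± 0.68 with pioglitazone (adjusted p = 0.147), -0.81 ± 0.59 with rosiglitazone (adjusted p = 0.679) and -1.94 ± 0.59 with troglitazone (adjusted p = 0.195). The pioglitazone signals of Wnt3 were at or just above the floor, so the size of that difference depends on the floor. It ran from -2.76 to -0.91 over the alternatives. Wnt1 (94134_at), the founding Wnt ligand, had 580.8 and 148.0 with pioglitazone, 123.6, 188.9 and 377.9 with rosiglitazone, 542.6, 495.9 and 169.8 with troglitazone and 296.1, 136.1 and 327.2 with vehicle, with the groups overlapping. Wnt10b, the ligand best known for holding preadipocytes back, lay between 24.6 and 183.7 on probe set 92751_i_at, above the floor on 8 arrays, and between 45.6 and 146.0 on 92752_r_at, above it on 9. Wnt5a (17.0 to 187.7) was above the floor on 6 arrays and Wnt6 (27.0 to 276.3) on 8. Both are further ligands studied in fat cell formation. Of the secreted inhibitors beside Sfrp2, Sfrp1 (24.2 to 110.7) was above the floor on 2 arrays and Sfrp4 (34.0 to 477.2) on 8.

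Among the other receptors, Fzd8 (99415_at) had 603.4 and 572.9 with pioglitazone, 494.6, 586.4 and 332.4 with rosiglitazone, 450.7, 358.2 and 265.4 with troglitazone and 598.3, 522.9 and 348.1 with vehicle. Each drug overlapped with vehicle, while both pioglitazone arrays lay above all troglitazone arrays. Fzd1, between 45.9 and 357.0, was above the floor on 9 arrays. Fzd3, Fzd6, Fzd7 and Fzd9 did not pass in any comparison. The second tested Fzd4 probe set, 95771_i_at, had 133.2 and 88.6 with pioglitazone, 12.1, 41.7 and 24.2 with rosiglitazone, 28.1, 9.5 and 22.0 with troglitazone and 32.0, 15.4 and 5.7 with vehicle. It was above the floor on the pioglitazone arrays alone, at least 1.47-fold above vehicle (adjusted p = 0.474), and at the floor on the other 9 arrays. This probe set met the filter for testing only through those pioglitazone arrays. Its tests therefore cannot decide whether pioglitazone differs, and no conclusion is drawn from them.

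In the cytoplasm and nucleus, β-catenin (Ctnnb1, 160430_at) had 885.8 and 991.4 with pioglitazone, 1238.2, 1127.4 and 1071.5 with rosiglitazone, 1134.0, 1267.1 and 1289.5 with troglitazone and 1537.9, 1279.8 and 1091.0 with vehicle. Both pioglitazone arrays lay below every vehicle array and the other groups overlapped with vehicle. The log2 differences were -0.51 ± 0.23 with pioglitazone (adjusted p = 0.475), -0.17 with rosiglitazone and -0.07 with troglitazone. Axin1, the scaffold of the destruction complex, had 441.0 and 743.5 with pioglitazone, 1009.7, 447.5 and 492.8 with rosiglitazone, 705.3, 840.9 and 793.6 with troglitazone and 577.3, 465.9 and 1024.1 with vehicle, without separation of the groups. Dvl1, which relays the signal from Frizzled, had 1236.6 and 809.0 with pioglitazone, 1122.5, 836.9 and 1192.0 with rosiglitazone, 708.8, 1001.8 and 1109.1 with troglitazone and 561.9, 661.5 and 1681.7 with vehicle, and its set 2 vehicle array was the highest of the 11. The paralogues Dvl2 and Dvl3 were above the floor on 8 (100495_at), 10 (161408_r_at) and 9 (101171_at) arrays. Lef1 (103628_at), a DNA-binding partner of β-catenin, had 368.2 and 220.1 with pioglitazone, 346.0, 782.4 and 270.0 with rosiglitazone, 239.5, 672.3 and 386.0 with troglitazone and 575.8, 536.0 and 201.1 with vehicle, with overlap of all groups. Its other probe set, 103629_g_at, ran between 44.3 and 378.9 and was above the floor on 9 arrays; the rosiglitazone value there was -1.42 ± 0.64 (adjusted p = 0.444). Tcf7l2, another such partner, had 754.3 and 327.6 with pioglitazone, 790.0, 1385.9 and 772.1 with rosiglitazone, 674.3, 1150.6 and 960.5 with troglitazone and 299.5, 1113.4 and 853.1 with vehicle on 102241_f_at. On 97660_s_at it had 306.4 and 344.6 with pioglitazone, 333.0, 366.1 and 162.4 with rosiglitazone, 292.4, 286.5 and 220.2 with troglitazone and 451.9, 219.7 and 150.4 with vehicle. On both probe sets each drug overlapped with vehicle.

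Tcf7l1, a TCF factor that mostly represses, was among the members with the smallest p with pioglitazone on probe set 104458_at. It had 310.9 and 1034.0 with pioglitazone, 934.2, 698.2 and 1277.7 with rosiglitazone, 1331.1, 1611.5 and 1248.7 with troglitazone and 1082.0, 1411.3 and 941.4 with vehicle. The 2 pioglitazone arrays were far apart, the first below all other arrays and the second inside the vehicle range. The log2 difference was -0.99 ± 0.42 (adjusted p = 0.435), -1.86 without pioglitazone replicate 2 (adjusted p = 0.0402) and -0.12 without pioglitazone replicate 1 (adjusted p = 0.984). The second probe set, 160780_at, had 288.0 and 563.0 with pioglitazone, 589.0, 733.0 and 880.4 with rosiglitazone, 680.8, 857.3 and 1154.4 with troglitazone and 165.8, 528.7 and 1012.2 with vehicle. Here vehicle overlapped with every drug. The troglitazone value was 0.97 ± 0.43 (adjusted p = 0.544) and 0.37 without vehicle replicate 1, the lowest array, and the pioglitazone value was 0.16, opposite in sign to that of 104458_at.

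In the Notch pathway the ligands were dim: Dll1 92931_at lay between 40.0 and 198.1, above the floor on 9 arrays, and Jag2 between 48.8 and 141.9, above it on 5. Notch1 (97497_at) had 125.1 and 212.0 with pioglitazone, 112.8, 84.6 and 73.2 with rosiglitazone, 305.6, 250.0 and 394.3 with troglitazone and 329.5, 220.2 and 641.1 with vehicle. All pioglitazone and rosiglitazone arrays were below all vehicle arrays, and the troglitazone arrays overlapped with vehicle. The log2 difference with rosiglitazone was -2.02 ± 0.56 (adjusted p = 0.12). The other Notch1 probe set, 162204_r_at, had 578.7 and 1159.8 with pioglitazone, 940.3, 717.5 and 491.3 with rosiglitazone, 950.5, 1051.7 and 189.9 with troglitazone and 1268.4, 1022.4 and 256.6 with vehicle, with a rosiglitazone interval of -0.77 to 0.77 around a value near 0. The 2 probe sets of Notch1 were not tested against each other.

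Notch2 was measured by 2 probe sets whose differences had opposite signs. On 101342_at it had 668.2 and 461.3 with pioglitazone, 697.3, 137.9 and 553.1 with rosiglitazone, 183.5, 234.1 and 519.0 with troglitazone and 240.1, 200.0 and 391.8 with vehicle. Both pioglitazone arrays were above every vehicle array, at a log2 difference of 1.39 ± 0.61 (adjusted p = 0.455). On 104188_at it had 344.1 and 250.3 with pioglitazone, 215.2, 319.3 and 190.4 with rosiglitazone, 268.4, 225.6 and 204.9 with troglitazone and 653.2, 373.1 and 343.9 with vehicle. Every rosiglitazone and troglitazone array lay below the lowest vehicle array there, and the difference over the 3 drugs was -0.84 ± 0.38 (adjusted p = 0.444). Neither probe set passed. Notch3 (57.6 to 264.8) and Notch4 92652_at (41.8 to 267.7) were above the floor on 10 arrays each, and Notch4 93928_f_at on 3.

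Of the Hes repressors, Hes2 (101724_at) had 110.5 and 172.1 with pioglitazone, 566.3, 262.0 and 238.3 with rosiglitazone, 296.1, 300.8 and 58.9 with troglitazone and 114.2, 70.0 and 60.1 with vehicle. The 3 rosiglitazone arrays lay above all vehicle arrays, of which 2 were at the floor. The log2 difference was 1.94 ± 0.59 with rosiglitazone (adjusted p = 0.165) and 1.13 ± 0.59 with troglitazone (adjusted p = 0.67). Hes1, the Notch target usually taken as the readout of the pathway, had 158.4 and 517.5 with pioglitazone, 397.8, 456.2 and 134.1 with rosiglitazone, 687.3, 799.8 and 234.1 with troglitazone and 75.0, 463.3 and 521.7 with vehicle. Vehicle values alone spanned 75.0 to 521.7, and no group stood apart. Hes6 (97334_at), which counteracts Hes1, had 93.2 and 527.7 with pioglitazone, 89.8, 138.2 and 194.9 with rosiglitazone, 198.3, 81.2 and 210.6 with troglitazone and 190.2, 329.7 and 202.1 with vehicle, again with overlapping groups.

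Of the preadipocyte genes beside Dlk1, Pdgfra, the receptor that marks mesenchymal progenitors, was measured by 3 probe sets. On 160332_at it had 265.7 and 165.2 with pioglitazone, 201.5, 192.9 and 94.9 with rosiglitazone, 552.3, 632.1 and 76.1 with troglitazone and 157.9, 249.5 and 358.6 with vehicle, and the groups overlapped. On 161202_r_at it had 73.5 and 52.4 with pioglitazone, 101.1, 154.4 and 15.0 with rosiglitazone, 138.3, 160.9 and 76.8 with troglitazone and 18.3, 12.9 and 13.3 with vehicle. The 3 vehicle arrays were at the floor and the 3 troglitazone arrays above it, a difference of at least 1.62-fold (adjusted p = 0.549). Pdgfra 95079_at lay between 49.9 and 518.5, above the floor on 7 arrays. The GATA factors, which repress Pparg in preadipocytes, were dim: Gata2 102789_at (69.2 to 422.0) was above the floor on 10 arrays, Gata2 161820_f_at (6.1 to 171.1) on 5 and Gata3 (23.2 to 142.9) on 6.

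Because the array holds more than 1 tested probe set for 13 of the genes, their values could be compared within a gene. The difference over the 3 drugs had the same sign on all probe sets of 5 of the 13 genes, and the counts were 4 with pioglitazone, 6 with rosiglitazone and 9 with troglitazone, where a probe set at the floor in both groups has no sign. Across the 11 arrays, which share their scaling, log2 signals of 2 probe sets of a gene correlated between -0.412 (Tcf7l2) and 0.568 (Pdgfra 160332_at and 161202_r_at) over 15 pairs.

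**Figure D4:**
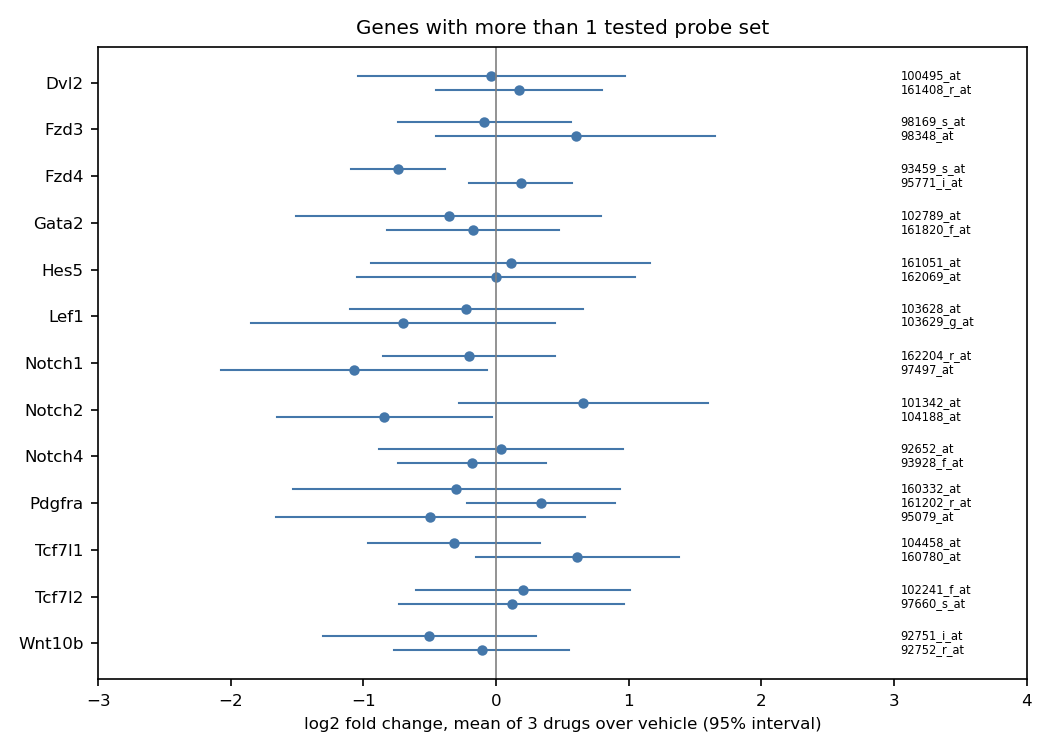
Log2 fold change over vehicle, mean of the 3 drugs, with its 95% interval for each tested probe set of the 13 genes that have more than 1. The 2 probe sets of Fzd4, of Notch2 and of Tcf7l1 lie on opposite sides of 0.

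Troglitazone and pioglitazone were given at the same dose (20 µM) and time, which makes them the 1 pair of drugs that could be compared. Both carry the thiazolidinedione ring; troglitazone ends in a chroman ring system like that of vitamin E, and pioglitazone in an ethyl-substituted pyridine. Of the 62 members 0 passed in this pair by limma, where 0.0341% of all probe sets did, and 4 (6.45%) had an unadjusted p under 0.05, against 6.35% of all. The median log2 difference was 0.11, against 0.04 over all. Fzd4 differed between the drugs by 0.09 (95% interval -0.40 to 0.58), Dlk1 by -0.23 (-0.73 to 0.26) and Fzd2 by -1.07 (-2.40 to 0.26), so that differences within these intervals remain possible. The smallest p was that of Tcf7l1 104458_at, higher with troglitazone by 1.29 (0.39 to 2.18; adjusted p = 0.586), where pioglitazone replicate 1 was the low array. Without pioglitazone replicate 1 the difference was 0.42 (adjusted p = 0.976), without pioglitazone replicate 2 it was 2.15 (adjusted p = 0.0615), and without both pioglitazone replicate 2 and rosiglitazone replicate 2 it was 2.19 (adjusted p = 0.0451). Next came Pdgfra 161202_r_at, at least 1.62-fold higher with troglitazone (adjusted p = 0.686), Fzd4 95771_i_at, at least 1.47-fold lower (adjusted p = 0.754), Notch2 101342_at at -1.31 (adjusted p = 0.768) and Ctnnb1 at 0.43 (adjusted p = 0.851). Of these, Fzd4 95771_i_at was tested only because its pioglitazone arrays were above the floor. Rosiglitazone was given at 1 µM, a different dose, so its values stand beside those of the others with no test between them.

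**Figure D5:**
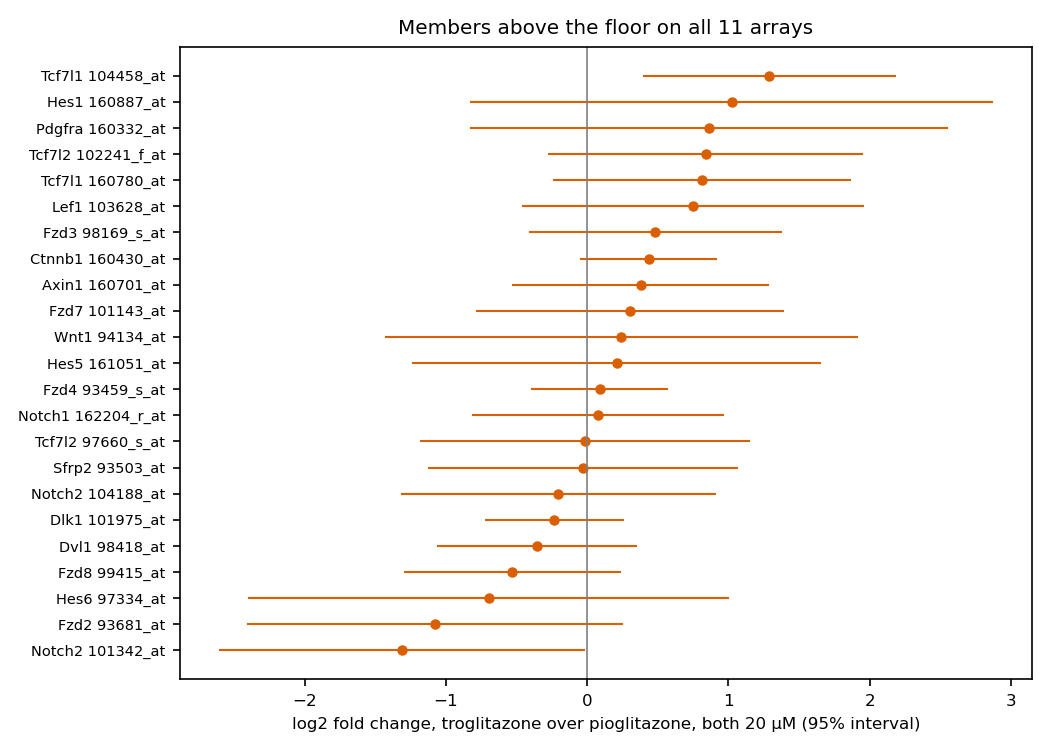
Log2 fold change of troglitazone over pioglitazone, both at 20 µM for 24 h, with its 95% interval for the 23 probe sets above the floor on all 11 arrays. The interval of Tcf7l1 104458_at lies above 0 and that of Notch2 101342_at below it, and neither passed after adjustment over all probe sets.

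Rosiglitazone and troglitazone were run in both sets, so it could be asked whether their effects differed between them. By limma 0 of 62 members passed the test of that difference for either drug, as did 0 of all 11739 probe sets, and 2 members (3.23%) had an unadjusted p under 0.05 for each drug, against 3.72% of all with rosiglitazone and 2.45% with troglitazone. For Fzd4 the log2 difference with rosiglitazone was -0.73 in set 1 and -0.83 in set 2, and with troglitazone -0.60 and -0.86. For Dlk1 it was -0.57 and -0.61 with rosiglitazone and -0.81 and -0.78 with troglitazone. For both genes every drug array lay below every vehicle array, so a lower value within each set follows from that. It is not separate support, and set 2 holds a single array per group.

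Other genes of the Wnt and Notch pathways, and a mixed list around fat cell formation, were counted. A gene with several tested probe sets stood by the one of highest mean log2 signal. Of 39 tested further Wnt genes (Lrp5, Apc and others), 0 passed in any of the 5 comparisons, with 4, 5, 2, 5 and 1 at an unadjusted p under 0.05 for pioglitazone, rosiglitazone, troglitazone, the 3 drugs and troglitazone against pioglitazone. Of 21 further Notch genes (Adam17, Rbpj and others), 0 passed, with 1, 3, 1, 2 and 1 in the same order. Among all probe sets tested, 9.85%, 10.5%, 8.32%, 10.5% and 6.35% had such a p in the same order. The mixed list holds preadipocyte markers, matrix genes and regulators of fat cell formation acting in either direction. Its counts therefore do not describe inhibitors alone. Of its 37 tested genes, 0 rose and 1 fell with pioglitazone, and 0 rose and 2 fell with rosiglitazone. With troglitazone 1 rose and 6 fell, and over the 3 drugs 1 rose and 5 fell. Of all probe sets tested, 0.903%, 1.35%, 1.33% and 2.14% were called in these comparisons. At an unadjusted p under 0.05 there were 15, 6, 9, 11 and 4 of the 37, in the order of the 5 comparisons above. The median log2 difference of these 37 genes over the 3 drugs was -0.40, against -0.03 over all probe sets. Fn1 (92852_at), the matrix protein fibronectin, had signals of 1044.6 and 1382.7 with pioglitazone, 1357.1, 1158.1 and 1258.4 with rosiglitazone, 1203.4, 1303.8 and 1034.6 with troglitazone and 2911.7, 2449.5 and 1966.6 with vehicle. It fell by 1.02 ± 0.16 over the 3 drugs on the log2 scale. Sparc, a matrix-binding glycoprotein, fell by 0.95 ± 0.16, and the collagen gene Col3a1 by 0.91 ± 0.18. Ddit3 (CHOP), a stress-induced inhibitor of C/EBP factors, rose by 0.77 ± 0.12 over the 3 drugs and by 1.50 ± 0.14 with troglitazone. In the comparisons of single drugs, Fn1 was called with each and Sparc with rosiglitazone and troglitazone. Col3a1 and Ddit3 were called with troglitazone only.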

How the data were processed

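The deposited values are array signal intensities on a linear scale, 1 per probe set and array. The authors had already scaled them, as the values show: the mean after trimming 2% at each end was 500.289 to 500.433 on every array. The array software is not given in the sources used here. Signals under 73.7 (25th percentile) were raised to it and log2 was taken, so a fall of a dim probe set is understated. Of 12422 probe sets (66 controls left out), 11739 above that floor on at least 2 arrays were tested with limma 3.58.1 in R 4.3.3: a term per group and for the set, 11 arrays, 6 residual degrees of freedom, an intensity trend, two-sided, Benjamini-Hochberg over all probe sets, called at an adjusted p under 0.05. The model was tested on simulated data. "Rose" and "fell" mean called. Folds come from this model, except those given as "at least", which come from the group means of the floored log2 signals. Gene names come from the platform annotation (10833 probe sets with 1 gene, 396 with several, 1193 with none), and all 65 members matched the GRCm38.p6 gene table. Values on each array are printed for members called, for the 5 smallest p-values of each drug comparison, and for a list of genes wherever above the floor on all arrays. Members, lists and this rule were chosen with earlier results of these data known. Alternatives were other scalings, floors, filters, models and subsets of arrays.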

Additional observations from a re-analysis of the deposited data

How the results depend on the processing

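The call of Fzd4 over the 3 drugs was the 1 call among members. The count of called members over the 3 drugs was 0 with median centring, with no filter on dim probe sets, with no set term, with set 1 alone and with no intensity trend. It was 3 with the floor at the 50th percentile, 2 with the β-actin ratio as a covariate and 2 with both arrays that stand apart (pioglitazone replicate 2 and rosiglitazone replicate 2) left out. Fewer probe sets were tested with the higher floor (41 members), and more low signals were raised to it. The cause of these changes in the count was not tested. Leaving out each array in turn gave counts of 0 to 1 over the 3 drugs, and 0 to 1 for pioglitazone, rosiglitazone and troglitazone each. Without both arrays that stand apart the count was 1 for each drug and 1 for troglitazone against pioglitazone. The share of all probe sets called under each alternative is not given here. The counts in this section are therefore not read as results about the members. With only the groups compared, troglitazone had 2 (Dlk1 and Fzd4). With no filter, the test of the set-by-drug difference had 1 call, Wnt7b with rosiglitazone. Wnt7b (92404_at) was above the floor on 4 arrays. Its vehicle array of set 2 was at 213.7, against 48.3 to 84.3 on the other arrays, so that difference turns on a single array. The replicate numbers 1 and 2 do not pair the samples: deviations of same-numbered arrays correlated between -0.0989 and 0.0949, those of replicate 4 between 0.289 and 0.362. With the replicate number as a block the count over the 3 drugs was 1 (Fzd4, log2 -0.74, adjusted p = 0.0370) and the counts of the other comparisons were 0. The test of the set-by-drug difference was not run under settings that drop the sets or an array of set 2, with the block, with the β-actin ratio or with only the groups compared. Among member results with an unadjusted p under 0.05 by limma, the sign changed in none of the alternatives. These were picked by that p in the same data, so a stable sign is not separate support. The signs of the other named results were not followed through the alternatives. The median log2 difference of the members, near 0, changed sign in some settings: it ran between -0.11 and 0.03 over the 3 drugs and between -0.09 and 0.06 with rosiglitazone. Signals near the floor limit what can be seen in the Wnt and Notch ligands.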
